A study of Mus musculus with 10 samples.

Results

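The 9 genes described here encode transcription factors that specify, build and maintain skeletal muscle: *Pax7* and *Six4*, the myogenic regulatory factors *Myf5*, *Myod1*, *Myog* and *Myf6*, and the MEF2 factors *Mef2a*, *Mef2c* and *Mef2d*. They were chosen by name, as the rows whose Ensembl identifiers map to these symbols in the GRCm38 annotation, with no threshold on a measured value, although earlier results of these data were known when the names were chosen. All 9 were found among the 49315 rows of the table of raw counts, and all 9 passed the filter on low counts that left 14714 genes.

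RNA came from the gastrocnemius, a mostly fast-twitch calf muscle, of 10 male mice on a C57BL6J background, 5 AHR-floxed (AHRfl) and 5 in which the aryl hydrocarbon receptor (AHR) was deleted in muscle (AHRmKO). The AHRmKO mice carry the HSA-MCM transgene, in which the promoter of human skeletal muscle actin drives a Cre recombinase that tamoxifen activates. This promoter works in muscle fibres, so that satellite cells, vessels and connective tissue of an AHRmKO muscle are expected to keep the receptor. The AHRfl mice are floxed littermates without Cre. According to the records of the series, mice breathed cigarette smoke at 220 ± 80 mg/m3 for 16 weeks, on 5 days per week, beginning 4 weeks after tamoxifen, and muscles were taken 72 h after the last exposure (the study's text gives a wider window that ends at 72 h). The study calls the mice aged but gives no age for them in the sources used here, and mice kept in air were not analysed here, so every comparison below is between genotypes under smoke.

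Muscle is built by a cascade of DNA-binding proteins. PAX7 marks the satellite cells, the resident stem cells on the surface of each fibre, and sine oculis homeobox proteins such as SIX4 act, with their EYA cofactors, upstream of the myogenic regulatory factors. MYF5 and MYOD1 commit cells to the lineage, MYOG drives their fusion and differentiation, and MYF6 (also called MRF4) is the family member that adult fibres keep at a high level. These 4 basic helix-loop-helix proteins pair with E proteins and bind the E-box, whereas MEF2 proteins bind an AT-rich site and cooperate with them at many muscle genes. In adult muscle *Myod1* and *Myog* are also known to rise after nerve injury, and *Myod1* is known to be higher in fast than in slow fibres.

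The 9 genes are protein coding. *Myog* lies on chromosome 1 of GRCm38 (chr1:134289989-134292548, plus strand) and *Myod1* on chromosome 7 (chr7:46376474-46379099, plus strand). *Myf5* (chr10:107482908-107486134) and *Myf6* (chr10:107492853-107494737) are neighbours on the minus strand of chromosome 10, with 6718 bases between them. *Pax7* (chr4:139737062-139833528) and *Six4* (chr12:73099609-73113456) are on the minus strand, as is *Mef2a* (chr7:67231163-67372858). *Mef2c* (chr13:83504034-83667080) and *Mef2d* (chr3:88142372-88172086) are on the plus strand. Some exon bases are shared with genes on the opposite strand, 302 bases of *Mef2a* (2.06% of its exon length) with *Lysmd4* and 531 bases of *Mef2d* (8.87%) with the antisense gene 1700113A16Rik. The study's methods say that reads were counted by strand if the library preparation kept it, but not whether it did, so reads in these stretches could belong to either gene.

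Promoter windows from RefSeq (GRCm38.p6), the 250 bases before an annotated start, were held for 7 of the 9 genes (10 windows). They are given here because the *Myog* promoter is a textbook case of MEF3, MEF2 and E-box elements close to a start site, and because *Myog* varied most between the mice. Of the 10 windows, 3 held an E-box (CANNTG, read on both strands), in *Myog* and *Mef2c*, against 66.2% of all 32851 windows. The MEF3 core that SIX4 binds (TCAGGTT, both strands) was in 3 of 10, in *Myog*, *Mef2c* and *Six4*, against 3.49% of all windows. The core to which the AHR and its partner bind (GCGTG, both strands) was in 3 of 10, in *Six4*, *Mef2a* and *Mef2d*, against 28.2% of all windows. No window held a match to the 10-base MEF2 consensus searched, which 2.92% of all windows held. An AT-rich stretch that departs from this consensus, such as the 1 in the *Myog* sequence below, was not counted. None of these motif matches overlapped another. The *Myog* sequence runs from 134289754 to 134289988 on the plus strand of chromosome 1 and the *Mef2c* sequence from 83503784 to 83504033 on the plus strand of chromosome 13, with E-boxes and MEF3 cores in capitals:
Myog: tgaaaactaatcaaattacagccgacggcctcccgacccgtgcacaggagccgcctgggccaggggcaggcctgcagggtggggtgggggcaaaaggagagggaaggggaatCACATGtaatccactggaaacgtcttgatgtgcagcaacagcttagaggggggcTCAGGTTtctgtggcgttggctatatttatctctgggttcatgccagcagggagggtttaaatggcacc
Mef2c: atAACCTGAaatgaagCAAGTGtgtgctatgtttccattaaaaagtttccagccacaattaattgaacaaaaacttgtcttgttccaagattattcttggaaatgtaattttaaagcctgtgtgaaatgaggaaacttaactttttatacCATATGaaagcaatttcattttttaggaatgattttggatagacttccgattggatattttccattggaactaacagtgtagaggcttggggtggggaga
In the *Myog* window the MEF3 core began 84 bases before the RefSeq start and the E-box shown began 138 bases before it. Another E-box began 12 bases before the RefSeq start and is not printed, since the sequence shown stops at the GENCODE start, 235 bases into the window. A match of letters is no evidence of binding.

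Each library held 30393035 to 37954388 counts. The targeted gene, *Ahr*, had between 43 and 110 counts in AHRfl and between 31 and 80 in AHRmKO muscle, a log2 fold change of -0.35 (95% interval -0.90 to 0.20, adjusted p = 0.844 by edgeR's quasi-likelihood test), so that whole-muscle counts did not separate the genotypes by this gene. The study reports muscle-specific recombination in AHRmKO mice, by PCR around the floxed exon and by qPCR of *Ahr*. Counts here were summed over all exons of *Ahr* and all cells of the muscle, so they cannot show how complete that deletion was. *Esr1*, whose sequence is part of the transgene, had between 544 and 658 counts in AHRfl and between 9770 and 24975 in AHRmKO muscle. It thus split the mice by the genotype named in each sample title. *Esr1* was the only gene of 14714 past an adjusted p of 0.05 by edgeR (0.0068% of the genes tested). The DESeq2 Wald test put 21 genes past that threshold, and edgeR with no filter beyond 1 count in all put 5. The median log2 fold change of all genes tested was 0.01. AHRfl mouse 33 had the fewest counts and the most genes with a count (25494, against 21296 to 23833 in the others). *Xist*, which male cells do not express, had between 44 and 75 counts in 5 mice of both genotypes (AHRfl 11, 15 and 33, AHRmKO 9 and 22) and at most 3 in the others, while the 4 Y-linked genes examined had between 282 and 2723 counts in every mouse.

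None of the 9 factors passed the adjusted threshold of 0.05 between AHRmKO and AHRfl muscle, and limma-voom called none either. The DESeq2 Wald test called none of the 7 members to which it gave an adjusted p, and gave none to *Pax7* and *Myf5*. At an unadjusted p under 0.05 there was 1 member of 9, *Myod1*, against 6.61% of all genes tested. The groups overlapped in all 9 members, and did not overlap in 1.4% of all genes tested. Of the 9, 7 had a log2 fold change above 0 and 2 below, with a median of 0.06. Values are CPM, counts scaled to library size after TMM normalization (edgeR's correction for library composition), and the floor of 3 counts lay between 0.0788 and 0.0927 CPM. In whole muscle, fewer cells of a type and less RNA per cell cannot be told apart.

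The levels of the 9 genes differed far more between genes than between genotypes. Set per kilobase of exon, as RPKM (CPM divided by the exon length of all annotated transcripts together), *Myf6* was the highest at 121 ± 51.5 (SD, n = 10). *Mef2c* at 34 ± 2.55 and *Mef2d* at 32.4 ± 1.44 RPKM (SD, n = 10) came next and did not separate, with *Mef2c* above *Mef2d* in 7 of 10 mice. *Mef2a* followed at 8.9 ± 0.924 and *Myod1* at 6.51 ± 2.05 RPKM, whose ranges overlapped. *Myog* was at 2.76 ± 1.59 and *Six4* at 1.25 ± 0.166 RPKM, again with overlapping ranges. *Myf5* at 0.576 ± 0.101 and *Pax7* at 0.244 ± 0.0599 RPKM were the lowest, and each was below the gene before it in 10 of 10 mice. The union of exons of *Mef2c* covers 31 annotated transcripts and 15715 nt, and that of *Mef2a* 12 transcripts and 14681 nt. For both genes the RPKM of a muscle that uses a shorter transcript is understated.

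**Figure D1:**
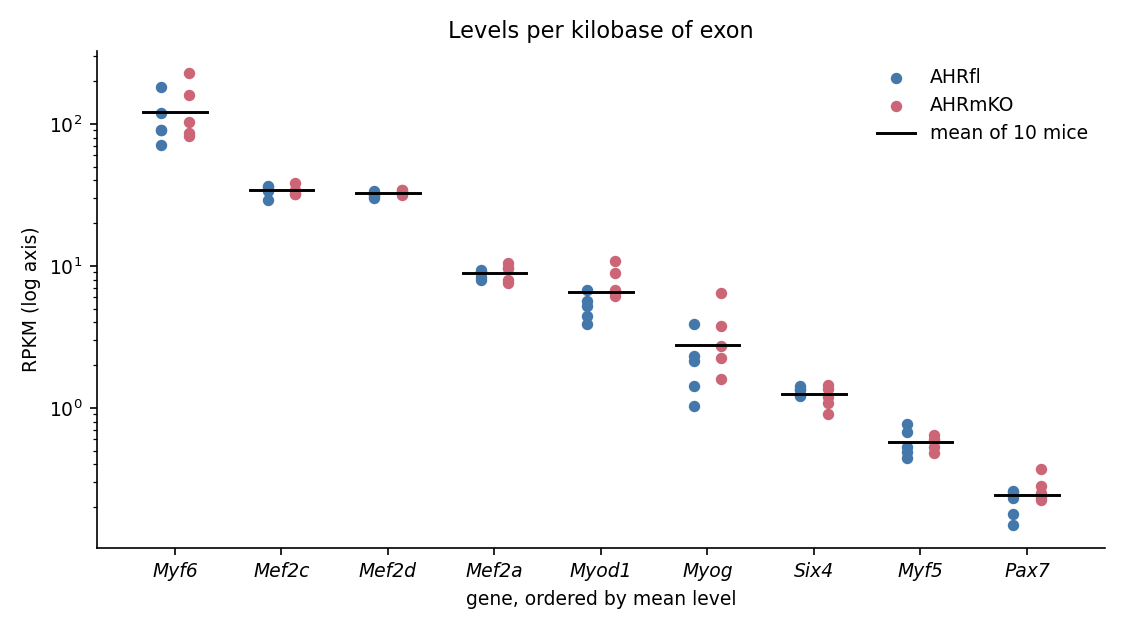
RPKM (log axis) of each gene in each mouse, AHRfl in blue and AHRmKO in red, with a line at the mean of 10 mice. *Myf6* sits highest at 121 RPKM and *Pax7* lowest at 0.244, and within each gene the genotypes overlap.

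Adult muscle thus held the 4 myogenic regulatory factors in very unequal amounts. *Myf6* made up between 88.7% and 94.6% of their summed RPKM (median 92.3%), and its share was 93% ± 1.39 in AHRfl and 91.3% ± 2.24 in AHRmKO muscle (SD, n = 5 each; exact permutation p = 0.198). *Myod1* made up 4.66% ± 1.14 in AHRfl and 5.9% ± 1.6 in AHRmKO muscle (SD, n = 5 each; exact permutation p = 0.183). The *Myod1* to *Myf5* ratio of RPKM was 9.28 ± 2.79 in AHRfl and 13.7 ± 2.4 in AHRmKO muscle (SD, n = 5 each; unadjusted exact permutation p = 0.0476). The *Myog* to *Myod1* ratio was 0.407 ± 0.173 and 0.406 ± 0.125 (SD, n = 5 each; exact permutation p = 0.929). Among the MEF2 factors, *Mef2c* and *Mef2d* had near equal shares, with medians of 45.6% and 43% of their summed RPKM, and *Mef2a* had 11.6%. These shares depend on the exon lengths used. Before division by length, mean CPM over the 10 mice was 534 for *Mef2c*, 194 for *Mef2d* and 131 for *Mef2a*. The *Mef2c* share was between 42.2% and 47.5% over the 10 mice.

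*Pax7*, the satellite cell marker, was counted at low depth, with 31 to 83 counts per mouse. Its CPM was 1.05, 1.36, 0.874, 1.52 and 1.51 in AHRfl mice 11, 12, 13, 15 and 33, and 1.65, 1.36, 1.48, 2.18 and 1.32 in AHRmKO mice 8, 9, 19, 22 and 34. AHRmKO mice 8 and 22 were above every AHRfl mouse and the others overlapped. AHRmKO exceeded AHRfl by 0.34 on the log2 scale (SE 0.215, 95% interval -0.12 to 0.81, adjusted p = 0.815 by edgeR; two-sided exact permutation p = 0.167), and by 0.20 without AHRmKO mouse 22.

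*Six4*, which acts on early myogenic genes, was the member with the lowest log2 fold change. Its CPM was 15.5, 13.3, 14.4, 14.7 and 13.1 in the AHRfl mice and 15.8, 13, 9.9, 14.7 and 11.8 in the AHRmKO mice, in the same order of animals. The AHRfl mice lay within 13.1 to 15.5 CPM, whereas AHRmKO mice 9 (narrowly), 19 and 34 were below all of them and mouse 8 was above. This gave a log2 fold change of -0.12 (SE 0.114, 95% interval -0.37 to 0.13, adjusted p = 0.887 by edgeR; exact permutation p = 0.333), which ran from -0.20 without AHRmKO mouse 8 to -0.03 without AHRmKO mouse 19.

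*Myf5*, the early commitment factor that quiescent satellite cells also transcribe, had 30 to 56 counts per mouse. Its CPM was 1.02, 1.61, 1.1, 1.4 and 0.927 in the AHRfl mice and 0.998, 1.11, 1.26, 1.21 and 1.35 in the AHRmKO mice, and the AHRmKO range lay inside the AHRfl range. On the log2 scale the difference was -0.04 (95% interval -0.48 to 0.40, adjusted p = 0.987 by edgeR; exact permutation p = 0.929). At this depth the interval still allows a fold between 0.719 and 1.32.

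*Myod1*, the lineage master regulator, was the factor with the lowest p. Its CPM was 7.31, 10.5, 12.6, 8.3 and 9.74 in AHRfl mice 11, 12, 13, 15 and 33, and 12, 11.4, 12.6, 16.6 and 20.1 in AHRmKO mice 8, 9, 19, 22 and 34. Only AHRfl mouse 13 reached into the AHRmKO range, and the other 4 AHRfl mice were below every AHRmKO mouse. The means were 9.67 ± 2.03 and 14.5 ± 3.71 CPM (SD, n = 5 each). This is a log2 fold change of 0.59 (SE 0.181, 95% interval 0.19 to 0.98), with an unadjusted p of 0.00704 and an adjusted p of 0.606 by edgeR, and the exact permutation p was 0.0238, where the smallest that 5 against 5 mice can give is 0.00794. The difference therefore did not hold after adjustment over all genes. Without the 5 mice that had *Xist* counts, an alternative chosen after seeing the data, which leaves 2 AHRfl and 3 AHRmKO mice, the log2 fold change was 0.37 and the unadjusted p 0.164.

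*Myog*, the differentiation factor, had the highest log2 fold change of the 9 and also the widest spread. Its CPM was 1.54, 5.83, 3.22, 2.12 and 3.46 in the AHRfl mice and 4.07, 2.39, 3.37, 5.63 and 9.6 in the AHRmKO mice. AHRmKO mouse 34 was the highest and AHRfl mouse 11 the lowest, 6.25-fold apart, and the other 8 mice were mixed. AHRmKO exceeded AHRfl by 0.63 on the log2 scale (SE 0.427, 95% interval -0.32 to 1.58, adjusted p = 0.829 by edgeR; exact permutation p = 0.214). It was 0.26 without AHRmKO mouse 34 and 0.96 without AHRfl mouse 12, and in the latter case the unadjusted p was 0.045.

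*Myf6*, the factor of mature fibres, had a 3.2-fold range over the mice at a level where counting error is small, with 3138 to 9609 counts per mouse. Its CPM was 114, 229, 151, 89.8 and 115 in the AHRfl mice and 109, 104, 202, 131 and 287 in the AHRmKO mice. Mice of both genotypes were high (AHRfl 12, AHRmKO 19 and 34) and low (AHRfl 15, AHRmKO 9). The genotypes differed by 0.25 on the log2 scale (SE 0.355, 95% interval -0.55 to 1.06, adjusted p = 0.933 by edgeR; exact permutation p = 0.571), and without AHRmKO mouse 34 it was -0.03.

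**Figure D2:**
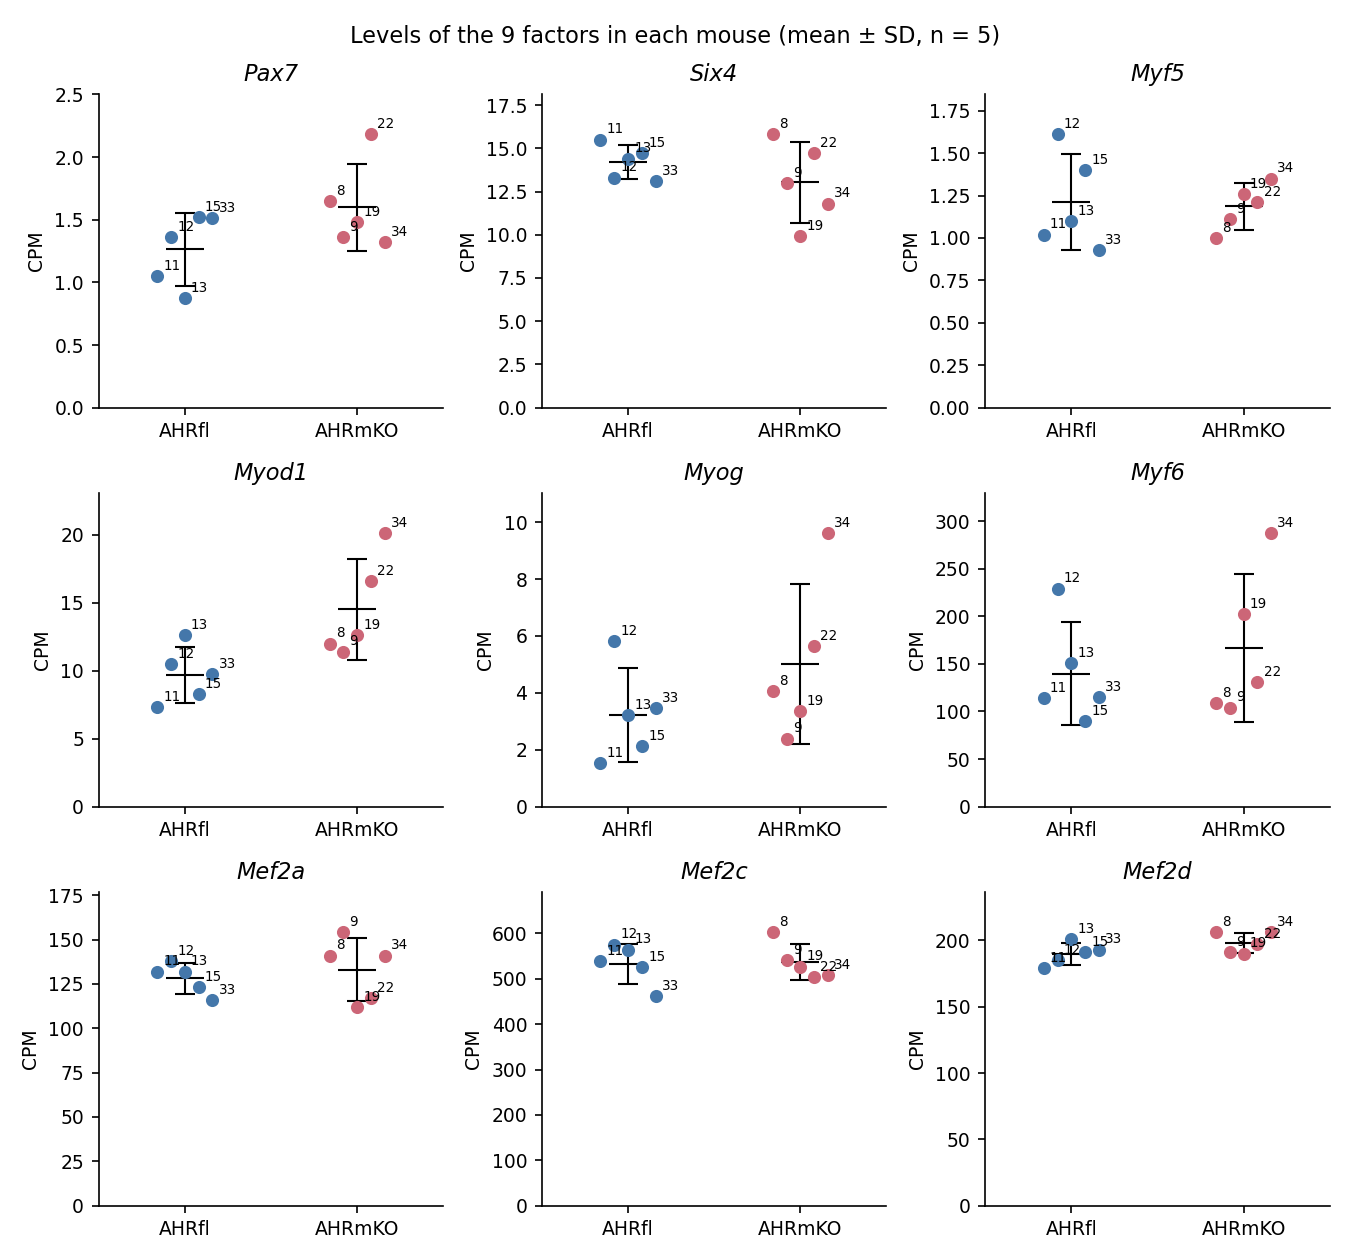
CPM of each gene in each mouse, numbered by animal, for AHRfl (blue) and AHRmKO (red), with bars for mean ± SD (n = 5). Only *Myod1* has 4 of 5 AHRfl mice below every AHRmKO mouse, and AHRmKO mouse 34 is the highest for *Myod1*, *Myog* and *Myf6*.

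The MEF2 factors, which bind muscle promoters together with the myogenic regulatory factors and take up calcium and kinase signals through class II deacetylases, had the smallest spread between mice in CPM. *Mef2a* was at 132, 138, 132, 123 and 116 CPM in the AHRfl mice and at 141, 154, 112, 117 and 141 CPM in the AHRmKO mice, with AHRmKO mice both above and below the AHRfl range. *Mef2c* was at 539, 575, 564, 526 and 461 CPM in the AHRfl mice and at 602, 541, 527, 503 and 508 CPM in the AHRmKO mice, with AHRfl mouse 33 the lowest. *Mef2d* was at 179, 185, 201, 191 and 193 CPM in the AHRfl mice and at 206, 191, 190, 197 and 206 CPM in the AHRmKO mice.

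The genotype differences of the 3 were small and their intervals narrow. The log2 fold change was 0.05 for *Mef2a* (95% interval -0.15 to 0.25, adjusted p = 0.954 by edgeR), 0.01 for *Mef2c* (-0.16 to 0.18, adjusted p = 0.994) and 0.06 for *Mef2d* (-0.07 to 0.18, adjusted p = 0.889). As folds, these intervals run from 0.903 to 1.19 for *Mef2a*, from 0.895 to 1.13 for *Mef2c* and from 0.956 to 1.14 for *Mef2d*, so that a larger change than these bounds lies outside what the mice allow at 95%.

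**Figure D3:**
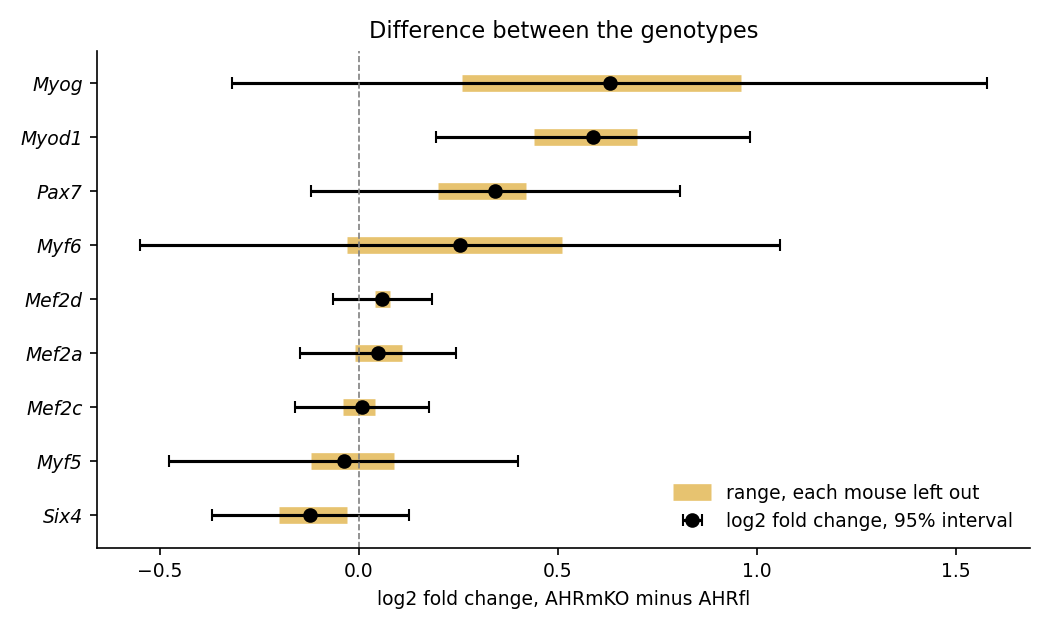
Log2 fold change of each gene (AHRmKO minus AHRfl, points) with its 95% interval (bars) and the range when each mouse was left out in turn (yellow). *Myod1* has the only interval above 0 (0.19 to 0.98), and the yellow range of *Myf6* reaches from -0.03 to 0.51.

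The spread between mice, whatever their genotype, differed among the 9 genes. The coefficient of variation of CPM over the 10 mice was 57.6% for *Myog*, 42.4% for *Myf6* and 31.5% for *Myod1*, against 4.45% for *Mef2d*, 7.49% for *Mef2c* and 10.4% for *Mef2a*. Among genes within 1.5 times of the same mean level, 98.6% varied less than *Myog* (1830 genes), 97.6% less than *Myf6* (715 genes) and 95.9% less than *Myod1* (2466 genes). By the same measure 4.5% of 556 genes varied less than *Mef2d*, 10.1% of 1587 genes less than *Myf5* and 23.5% of 166 genes less than *Mef2c*. *Pax7*, *Mef2a* and *Six4* lay nearer the middle, with 47.6%, 66.2% and 68%, so that for its level *Mef2a* was not steadier than most genes. These percentages describe the libraries and are no test.

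Relations over the 10 mice were computed between all members. The highest Pearson correlation of log2 CPM between members was that of *Myod1* and *Myog* (r = 0.84, permutation p = 0.00286; Spearman's rho = 0.65, p = 0.049), followed by *Myog* and *Myf6* (r = 0.75, permutation p = 0.0121; rho = 0.70, p = 0.0309) and *Myod1* and *Mef2d* (r = 0.74, permutation p = 0.0153; rho = 0.62, p = 0.0606). Of 63 relations computed (36 between members and 27 with scores of gene lists), 6 had an unadjusted p under 0.05 for r and 0 an adjusted one, the adjusted p of these 3 being 0.18, 0.322 and 0.322 for r and 0.636 for each rho. Without the 2 mice farthest from the median of the first gene, AHRfl 11 and AHRmKO 34 in each case, r was 0.56, 0.61 and 0.39. These were the lowest and the highest mouse for *Myod1* and for *Myog*. Leaving out both also narrows the range, so a lower r does not show that a relation rested on them. For *Myod1* and *Mef2d*, r was 0.61 without AHRfl 11 alone and 0.64 without AHRmKO 34 alone. With the genotype means removed, r of the 3 pairs was 0.85, 0.75 and 0.63. The remaining pair of the 3 most variable factors, *Myod1* and *Myf6*, had r of 0.61 (permutation p = 0.0638, adjusted p = 0.532; rho = 0.60, p = 0.073, adjusted p = 0.657), and 0.29 without AHRfl 11 and AHRmKO 34. With library size alone as the scaling, r of *Myod1* and *Mef2d* was 0.34. *Six4* ran against *Myf6* (r = -0.64, permutation p = 0.0466, adjusted p = 0.489; rho = -0.55, p = 0.107, adjusted p = 0.82), and without AHRmKO 19 and 34 this was -0.32.

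*Pax7* was also set beside the 3 scores. Its r was 0.67 with the slow-fibre score, the mean log2 CPM of 8 slow-fibre genes (permutation p = 0.0321, adjusted p = 0.404; rho = 0.78, p = 0.0111, adjusted p = 0.472), and 0.70 with the mean of the other satellite cell markers (permutation p = 0.0255, adjusted p = 0.401; rho = 0.76, p = 0.015, adjusted p = 0.472). Without AHRfl 13 and AHRmKO 22 these were 0.66 and 0.64, and with the genotype means removed 0.65 and 0.57. Without AHRfl 13 alone the 2 values of r were 0.66 and 0.51 (permutation p = 0.0459 and 0.153, adjusted p = 0.47 and 0.575). With the denervation score its r was 0.13 (permutation p = 0.723, adjusted p = 0.949; rho = 0.20, p = 0.584, adjusted p = 0.869). With the same score r was 0.48 for *Myod1* and 0.49 for *Myog* (permutation p = 0.159 and 0.147, adjusted p = 0.628 for both; rho = 0.43 and 0.33, p = 0.219 and 0.35, adjusted p = 0.82 for both). Without AHRfl 11 and AHRmKO 34, r with this score was -0.23 for *Myod1* and -0.21 for *Myog*. *Myod1* and *Myog* had r of 0.05 and -0.04 with the slow-fibre score (permutation p = 0.897 and 0.921, adjusted p = 0.969 for both; rho = 0.07 and 0.03, p = 0.864 and 0.946, adjusted p = 0.955 and 0.989). The slow-fibre genes varied widely between muscles of one genotype: their summed CPM ran from 94.8 to 2020 in AHRfl and from 252 to 2400 in AHRmKO muscle. In a fit that included the slow-fibre score, the log2 fold change was 0.63 for *Myod1* (unadjusted p = 0.00892, adjusted p = 0.493 by edgeR) and 0.25 for *Pax7* (unadjusted p = 0.244, adjusted p = 0.816 by edgeR), against 0.59 and 0.34 without it. The part of fibre type or of the piece of muscle taken was not tested.

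**Figure D4:**
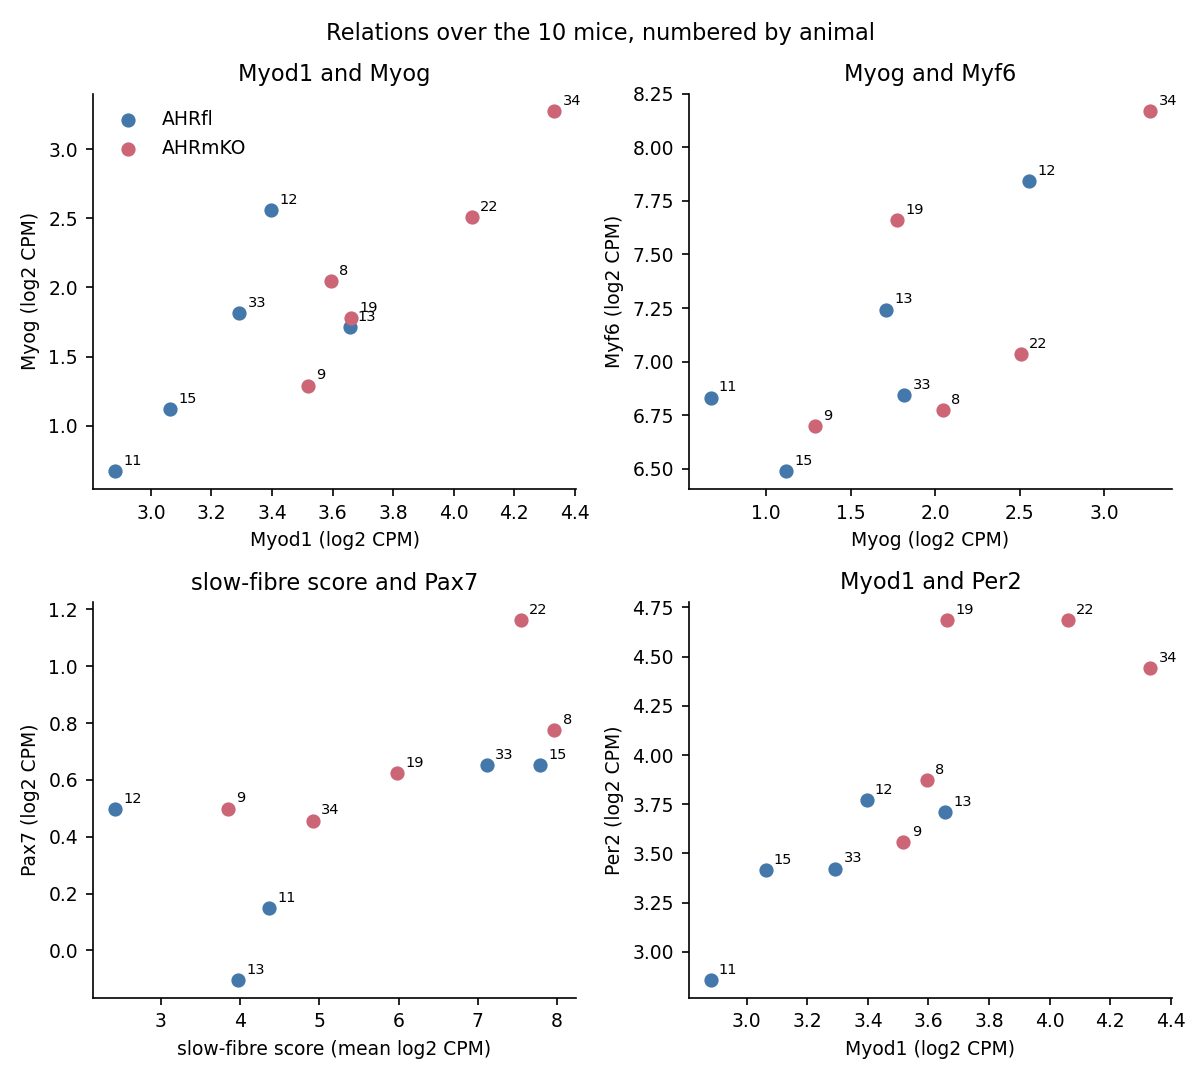
Log2 CPM of *Myod1* and *Myog*, *Myog* and *Myf6*, the slow-fibre score and *Pax7*, and *Myod1* and *Per2* in the 10 mice, numbered by animal (AHRfl blue, AHRmKO red). AHRmKO mouse 34 is the highest in *Myod1*, *Myog* and *Myf6*, and r of *Myod1* and *Myog* is 0.84 with all mice.

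Across the whole table, the genes most like each factor over the 10 mice were named by r of log2 CPM among 10775 other genes with a mean of at least 2 CPM, as a description only. *Myod1* was closest to *Rrp1b* (r = 0.97), *Adamts1* (0.97), a secreted metalloprotease, and *Pprc1* (0.93), a coactivator of the PGC-1 family. Like *Myod1*, these genes were higher in AHRmKO muscle, with log2 fold changes of 0.28, 0.54 and 0.22 (unadjusted p = 0.0189, 0.00091 and 0.0284 by edgeR). Their r with the genotype means removed was not computed. *Myog* was closest to *Epc1* (0.95), *Kif3c* (0.94) and *Usp2* (0.93), a deubiquitinase gene under clock control. *Myf6* was closest to *Tars* (0.97), a threonyl-tRNA synthetase gene, *Sat1* (0.96), an enzyme of polyamine breakdown, and *Mettl22* (0.96). *Six4* was closest to *Ankrd26* (0.92), *Smarcad1* (0.91) and *Ssh1* (0.90). *Mef2a* was closest to *Fgd4* (0.95), *Slf2* (0.93) and *Pkia* (0.93), *Mef2c* to *Pter* (0.96), *Xrn1* (0.94) and *Ikzf5* (0.91), and *Mef2d* to *Picalm* (0.93), *Appbp2* (0.91) and *Wdcp* (0.89). No gene was the nearest of more than 1 factor. *Pax7* and *Myf5* were below 2 CPM and were not matched.

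The proteins with which these factors work showed no adjusted call either. Of 7 relatives and cofactors of SIX4 and PAX7 (*Six2*, *Six5*, *Eya1* to *Eya4* and *Pax3*), 6 were tested and 0 passed, with a median log2 fold change of 0.10 and a range from -0.23 (*Six2*) to 0.25 (*Eya2*). *Pax3*, the embryonic relative of *Pax7*, had at most 13 counts per mouse. Of 12 E proteins and inhibitors of basic helix-loop-helix factors, 12 were tested and 0 passed, with a median of -0.07. *Id3*, which sequesters E proteins, was at 12.4 ± 3.1 CPM in AHRfl and 17.8 ± 5.13 CPM in AHRmKO muscle (SD, n = 5 each; log2 fold change 0.53, unadjusted p = 0.0339, adjusted p = 0.718 by edgeR). *Msc*, a repressor of MYOD1 activity, was the lowest of the list at -0.83 (unadjusted p = 0.0598, adjusted p = 0.772 by edgeR) with at most 48 counts per mouse.

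Of 16 MEF2 partners, kinases and repressors, 15 were tested and 0 passed, with a median of 0.01. *Vgll4*, which competes for TEAD proteins, had the highest value of the list, with 11.9, 9.23, 12.3, 11.4 and 11.6 CPM in the AHRfl and 12.2, 16.1, 17.7, 13.9 and 13.4 CPM in the AHRmKO mice (log2 fold change 0.38, unadjusted p = 0.00478, adjusted p = 0.606 by edgeR). Only AHRmKO mouse 8 lay within the AHRfl range. *Ppp3ca*, a catalytic subunit of calcineurin, was the lowest at -0.20 (adjusted p = 0.815 by edgeR). The class II deacetylase genes *Hdac4*, *Hdac5*, *Hdac7* and *Hdac9*, whose products hold MEF2 inactive, had log2 fold changes between -0.07 and 0.13.

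Genes that these factors are known to drive showed no adjusted call. Of 20 target genes, 18 were tested and 0 passed, with 11 above 0, 7 below and a median of 0.04. The range ran from -0.12 for *Chrnb1* to 0.33 for *Chrnd*, both subunits of the acetylcholine receptor. *Chrna1*, its alpha subunit and a classical E-box target, was at 14.1 ± 1.03 CPM in AHRfl and 16.4 ± 1.29 CPM in AHRmKO muscle (SD, n = 5 each; log2 fold change 0.22, unadjusted p = 0.0159, adjusted p = 0.665 by edgeR). *Ckm* (creatine kinase) was at 0.07, *Des* (desmin) at -0.10 and *Acta1* at 0.13 on the log2 scale, with adjusted p of 0.953, 0.863 and 0.815 by edgeR. *Mymk* and *Mymx*, the fusion proteins of myoblasts, had at most 13 and 4 counts per mouse and were not tested.

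Of 12 denervation-responsive genes, 9 were tested and 0 passed, with a median of 0.22. With each mouse left out this median ran from 0.08 (without AHRmKO mouse 34) to 0.30 (without AHRmKO mouse 9), and it was 0.11 without AHRmKO mouse 19. At an unadjusted p under 0.05 there were 2 of 9, against 6.61% of all genes tested, namely *Chrna1* and, in the other direction, *Cdkn1a*, a cell cycle inhibitor, at 56.3 ± 10.1 CPM in AHRfl and 34.2 ± 12.5 CPM in AHRmKO muscle (SD, n = 5 each; log2 fold change -0.72, unadjusted p = 0.0241, adjusted p = 0.683 by edgeR). *Runx1* was the highest at 0.45 (unadjusted p = 0.0659, adjusted p = 0.776 by edgeR). *Chrng*, the embryonic receptor subunit, had at most 18 counts and none in the lowest mouse.

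**Figure D5:**
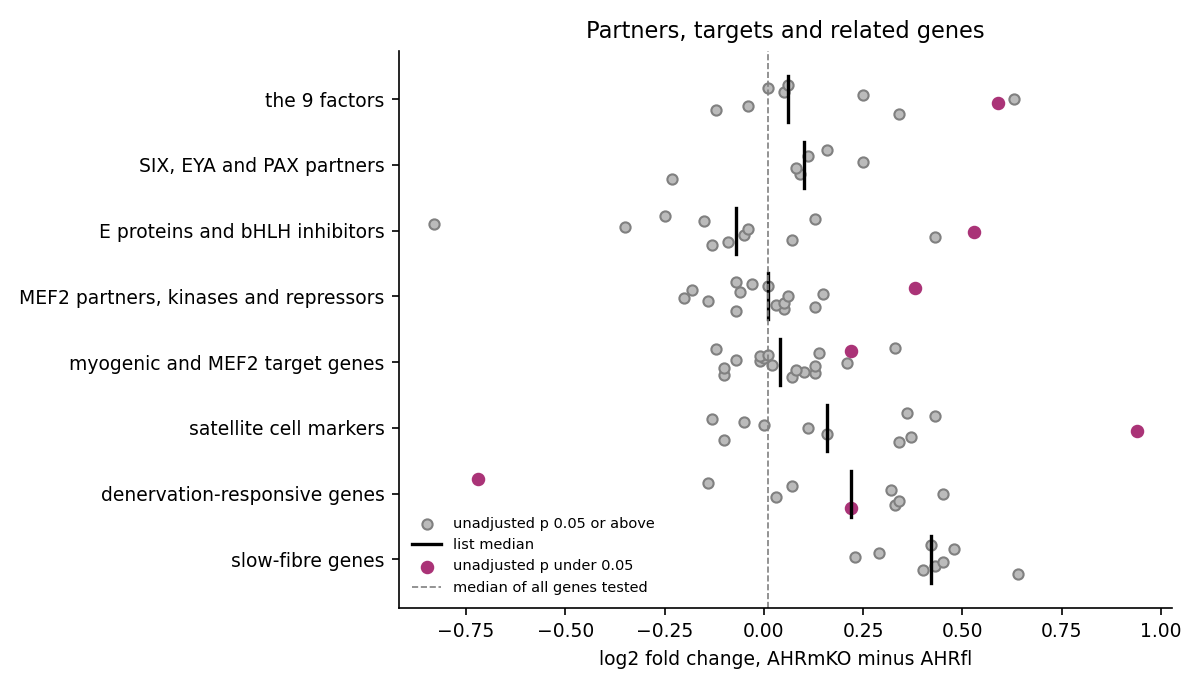
Log2 fold change (AHRmKO minus AHRfl) of each tested gene in the 9 factors and in 7 related lists, with list medians as black lines and the median of all genes tested as a dashed line. Purple points have an unadjusted p under 0.05 and no point has an adjusted one, and list medians run from -0.07 to 0.42.

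Of 12 satellite cell markers, *Pax7* included, 11 were tested and 0 passed, 8 above 0 and 3 below, with a median of 0.16. The median was 0.08 without AHRfl mouse 13 or AHRmKO mouse 8, 0.30 without AHRfl mouse 15, 0.25 without AHRmKO mouse 19 or 34, and 0.06 in the fit that included the slow-fibre score. Without the 5 mice with *Xist* counts the median was 0.42. *Hey1*, a Notch target of quiescent satellite cells that endothelium also uses, was at 2.81, 2.68, 1.75, 3.66 and 7.6 CPM in the AHRfl and at 6.15, 7.3, 10.4, 5.78 and 5.86 CPM in the AHRmKO mice (log2 fold change 0.94, unadjusted p = 0.0215, adjusted p = 0.668 by edgeR), and AHRfl mouse 33 lay within the AHRmKO range. The marker *Sdc4* was the lowest at -0.13. The summed CPM of the list ran from 178 to 218 in AHRfl and from 175 to 214 in AHRmKO muscle, a sum carried mostly by *Itga7*, *Sdc4* and *Cdh15*. *Calcr*, a marker of quiescent satellite cells, was below the filter, with 1 to 8 counts in AHRfl and 8 to 16 in AHRmKO mice (0.132 ± 0.0817 and 0.3 ± 0.101 CPM, SD, n = 5 each), and was not tested.

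Markers of the tissue and of other cell types were set beside these values. Skeletal muscle markers were abundant, at 93900 to 124000 summed CPM in AHRfl and 102000 to 124000 in AHRmKO muscle. Endothelial markers ran from 141 to 208 and from 152 to 269, fibro-adipogenic and fibroblast markers from 601 to 871 and from 592 to 1050, and macrophage markers from 15.1 to 25.4 and from 12.6 to 30.6 summed CPM in AHRfl and AHRmKO muscle. Schwann cell markers ran from 61 to 110 and from 34.7 to 102 summed CPM, in AHRfl and AHRmKO muscle. Smooth muscle and pericyte markers ran from 269 to 409 and from 269 to 474, adipocyte markers from 9.71 to 61.3 and from 7.18 to 59.1, and erythroid markers from 105 to 322 and from 143 to 483 summed CPM. The median log2 fold change was 0.46 for the erythroid list (5 of 6 above 0), 0.33 for the adipocyte list (4 of 5), 0.14 for the endothelial list (6 of 6), 0.10 for the macrophage list (4 of 6), -0.04 for the smooth muscle and pericyte list (2 of 6), -0.06 for the fibroblast list (1 of 6) and -0.27 for the Schwann cell list (0 of 6). Fast-fibre genes had a median log2 fold change of 0.08 and the 8 slow-fibre genes of 0.42, from 0.23 (*Myl2*) to 0.64 (*Myh7*). Proliferation genes had at most 5.38 summed CPM over the 4 tested, with a median log2 fold change of -0.47 and 3 of 4 below 0. No gene of these lists passed an adjusted p of 0.05, and the part of any of these cell types in the values of the 9 factors was not tested.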

How the data were processed

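Paired-end reads of 150 bp from poly(A) RNA had been trimmed by the authors (Trimmomatic 0.36) and mapped to GRCm38 (STAR 2.5.2b), and reads with a unique place in exons had been summed per gene (featureCounts). The authors deposited raw counts per gene, 1 column per mouse, neither normalized nor pooled. The annotation release and the strand setting of these libraries are not given in the sources used here. Symbols, positions and exon lengths came from GENCODE M21 (GRCm38), which named 49056 of 49315 identifiers.

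Counts were filtered by filterByExpr (minimum count 10, minimum total 15), scaled by TMM and compared by the robust quasi-likelihood test of edgeR 4.0.16 in R 4.3.3, with Benjamini-Hochberg adjustment over 14714 genes. Log2 CPM used a prior count of 2. Each member was in addition given a two-sided exact permutation test over 252 assignments of mice, and correlations by 100000 permutations. The study's own test, DESeq2 (1.42.0), and voom of limma (3.58.1) were among the alternatives. The edgeR tests of all genes took each mouse as 1 replicate, and no 2 libraries held identical counts.

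Named from each list of related genes were the lowest and highest log2 fold change and any gene past an adjusted threshold. Genes with an unadjusted p under 0.05 were also named, with others chosen for their known role or for counts too low to test. A gene of one list is not reported here. Members and lists were chosen with earlier results of these data known. Reads carried no molecular identifiers, so the floor of 3 counts covers counting error only. The interval between tamoxifen and smoke and the time of harvest differ between the sources, and the values of the series record are used.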

Additional observations from a re-analysis of the deposited data

Results flagged for a closer look

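In 18 groups of 5 mice (9 genes in each genotype), no mouse stood apart from the others by Dixon's test on log2 CPM at its critical value of 0.71, where chance alone marks about 1 in 20 groups.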

How the results depend on the processing

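No member passed an adjusted p of 0.05 in any alternative that gave it one (DESeq2 gave none to *Pax7* and *Myf5*), nor 0.1 in the fit reported. The count of genes past 0.05 in the whole table, 1 as reported, was 21 by DESeq2, 5 with no filter beyond 1 count in all and 2 in a fit that included the slow-fibre score, and ran from 1 to 6 with each mouse left out (6 without AHRmKO 34). The count of members with an unadjusted p under 0.05 ran from 1 to 2 with each mouse left out (2 without AHRfl 12), beside 4.72% to 8.16% of all genes tested, and was 0 without the 5 mice with *Xist* counts, beside 3.68%. The count of members whose groups did not overlap ran from 0 to 1 (*Myod1* without AHRfl 13, its only overlapping AHRfl mouse), beside 1.8% to 3.28% of all genes tested. *Myod1* kept its direction in 19 of 19 alternatives, with log2 fold changes from 0.37 to 0.70, unadjusted p from 0.00168 to 0.164 and adjusted p from 0.202 to 0.994. *Pax7*, *Myog*, *Mef2d* and *Six4* also kept theirs. Near 0, *Myf5* turned to 0.0047 with the slow-fibre covariate and ran from -0.12 to 0.09 with each mouse left out, turning to 0.086, 0.020 and 0.018 without AHRfl 12, AHRfl 15 and AHRmKO 8. *Myf6* ran from -0.034 (without AHRmKO 34) to 0.51 and *Mef2a* from -0.0086 (without AHRmKO 9) to 0.11. *Mef2c* turned to -0.0039 with library size only and to -0.040 and -0.037 without AHRfl 33 and AHRmKO 8, and was at most 0.036 with a mouse left out. Without the 5 mice with *Xist* counts *Mef2a* was -0.045, *Mef2c* -0.061, *Myog* 0.33, *Myf6* 0.073 and *Myf5* -0.18, and the median was 0.42 for the satellite cell markers and -0.023 for the target genes. With each mouse left out, list medians ran from 0.07 to 0.17 for the relatives and cofactors of SIX4 and PAX7, from -0.19 to -0.01 for E proteins and inhibitors, from -0.05 to 0.04 for MEF2 partners and from 0.00 to 0.11 for target genes. The r of *Myod1* and *Myog* ran from 0.73 to 0.93 with each mouse left out, with an adjusted p of 0.0214 without AHRfl 12. The causes were not tested. No paired analysis was possible because the litter of each mouse is not given in the sources used here and the animal numbers name no pairs. Any part of litter in these values was not tested.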

Other observations

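Since *Usp2*, which the circadian clock is known to control, was among the genes most like *Myog*, 5 clock genes were set beside *Myod1*, *Myog* and *Myf6* after the data were seen. *Per2*, a repressor of the clock, was at 7.19, 13.6, 13, 10.6 and 10.7 CPM in AHRfl mice 11, 12, 13, 15 and 33 and at 14.6, 11.7, 25.7, 25.7 and 21.7 CPM in AHRmKO mice 8, 9, 19, 22 and 34 (log2 fold change 0.85, unadjusted p = 0.0059, adjusted p = 0.606 by edgeR). Over the 10 mice, r of *Myod1* and *Per2* was 0.85 (permutation p = 0.00214, adjusted p = 0.0321 over the 15 relations computed; rho = 0.90, p = 0.00112, adjusted p = 0.0168), 0.80 without AHRfl 11 and AHRmKO 34, and 0.70 with the genotype means removed, for which no test was run. The adjustment covers these 15 relations and not the search over 10775 genes that led to them, so it does not count as a test of a relation chosen beforehand. Of the other 14 relations none passed the adjusted threshold, *Myog* and *Per2* being the nearest (r = 0.72, permutation p = 0.018, adjusted p = 0.135; rho = 0.73, p = 0.0208, adjusted p = 0.105). *Nr1d1*, which encodes the clock repressor REV-ERB alpha, was at 190 ± 25.2 CPM in AHRfl and 137 ± 42.4 CPM in AHRmKO muscle (SD, n = 5 each; log2 fold change -0.48, unadjusted p = 0.0308, adjusted p = 0.707 by edgeR). The other clock genes examined, *Arntl*, *Dbp* and *Per1*, had log2 fold changes of -0.46, 0.22 and 0.10 (unadjusted p = 0.254, 0.397 and 0.582, adjusted p = 0.868, 0.909 and 0.953 by edgeR). The hour at which each mouse was killed is not given in the sources used here, and its part in these values was not tested.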
